A study of Homo sapiens with 6 samples.

Results

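The STAT and IRF transcription factors examined in these A549 libraries were 8 genes chosen by name, IRF1, IRF2, IRF3, IRF7, IRF9, STAT2, STAT3 and STAT6. They were 8 of 58735 genes listed, and all 8 were among the 16340 genes that passed the filter on low counts and were tested. A549 is an established line from a human lung adenocarcinoma, often used as a model of alveolar type II cells. All cells were stably transduced with lentivirus and kept in serum-supplemented RPMI medium. The T133A group carried PLVX-HOXB9-T133A, in which a threonine of the homeobox factor HOXB9 is replaced by alanine. The KO group was labelled PLVX-HOXB9 KO, and the WT group carried PLVX-HOXB9 with no such change. Each group had 2 libraries, and neither empty-vector nor untreated cells were among the samples analysed here. The labels do not say whether a group was 1 clone or a pool, or whether its libraries came from separate cultures, and the p-values therefore cover only the variation between these libraries, which may be technical.

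STAT proteins are latent cytoplasmic factors that Janus kinases phosphorylate at cytokine receptors, after which they pair, enter the nucleus and bind DNA. Interferon regulatory factors (IRFs) share a DNA-binding domain that reads GAAA repeats. After type I or III interferon, STAT2 joins another STAT and IRF9 in ISGF3, the complex that binds the interferon-stimulated response element (ISRE). IRF3 and IRF7 switch on the interferon genes after viral nucleic acid is sensed, IRF1 drives antigen presentation and guanylate-binding protein genes, and IRF2 competes with IRF1 for its sites. STAT3 carries signals of the interleukin-6 family, and STAT6 those of interleukins 4 and 13. In airway and lung epithelium these factors are known for antiviral defence and, in the case of STAT6, for mucous cell genes. Their activity depends on phosphorylation and location in the cell, which RNA counts do not measure.

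Total counts ran from 16299059 to 18745432 per library. Levels are given in CPM (the count divided by the library's total after TMM scaling), and differences as log2 fold changes with a standard error (SE) from edgeR's quasi-likelihood test, adjusted over all genes tested, with 0.05 as the threshold for a call. HOXB9 itself had 275 and 210.3 CPM in T133A, 14.5 and 15.4 CPM in KO, and 223 and 217 CPM in WT, so KO cells were 14.7-fold lower than WT cells (log2 fold change −3.88, SE 0.135, adjusted p = 3.27e-16). The counts do not separate HOXB9 RNA of the vector from that of the cell's own gene. The 10 markers of A549 cells and simple epithelium were all detected, with summed levels of 23192 to 25676 CPM in T133A, 19219 to 20763 CPM in KO and 27584 to 28760 CPM in WT. The alveolar type II markers were near 0, at summed levels of 0.969 to 2.45 CPM over all libraries. Among the 8 haematopoietic markers PTPRC and CD3E had at most 0.0585 CPM, while the list summed to 14.4 to 17.8 CPM in T133A, 11.3 to 16.4 CPM in KO and 9.81 to 13.4 CPM in WT. Most of this sum was CD14, at 5.28 to 12.8 CPM over all libraries, and ITGAM, and the other 6 had means under 1 CPM. ITGAM had 4.31 and 2.65 CPM in T133A, 5.58 and 5.01 CPM in KO, and 1.46 and 1.17 CPM in WT. The 7 fibroblast markers summed to 40.4 to 42.3 CPM in T133A, 9.71 to 10.7 CPM in KO and 41.9 to 42.4 CPM in WT. Of these, LUM had 20.6 and 25.5 CPM in T133A, 0.243 and 0.215 CPM in KO, and 21.6 and 20.9 CPM in WT. COL3A1 had 10.5 and 9.64 CPM in T133A, 0.0607 and 0.0538 CPM in KO, and 13.3 and 13.4 CPM in WT. COL1A1 had 8.80 and 5.88 CPM in T133A, and was higher in KO (9.04 and 9.90 CPM) than in WT (6.43 and 6.36 CPM). The other 4 had means under 1 CPM. The 5 endothelial markers, each with a mean under 1 CPM, summed to 2.18 to 2.35 CPM in T133A, 0.304 to 0.323 CPM in KO and 0.836 to 1.75 CPM in WT, and the part of both lists in the results was not tested. Mitochondrial transcripts took 8.91% and 8.51% of counts in T133A, 5.60% and 4.45% in KO and 7.87% and 7.84% in WT, and their part was not tested either. In bulk RNA, fewer cells of a kind and less RNA per cell cannot be told apart.

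Between KO and WT cells, 6 of the 8 genes differed. IRF3 was higher in KO, and IRF2, IRF7, IRF9, STAT2 and STAT6 were lower. Over all genes tested 46.6% were called in that comparison, 23.6% higher and 23.0% lower. Between T133A and WT cells only IRF1 was called among the 8, and it was higher in T133A, where 9.55% of all genes tested were called, 5.58% higher and 3.97% lower. Between T133A and KO cells all 8 were called with all libraries in 1 fit, 7 higher in T133A and IRF3 lower. Of all genes 39.9% were called there, 20.3% higher and 19.6% lower. The spread between replicates (chi-square per degree of freedom) was 2.37 in WT, 9.16 in T133A and 11.05 in KO, and the fit pooled it. With only T133A and KO in the fit, the calls of IRF3 and STAT3 were lost, while IRF1, IRF2, IRF7, IRF9, STAT2 and STAT6 kept theirs. The 3 comparisons share libraries, so their counts are not separate evidence. The median log2 fold change of the 8 genes was 0.03 for T133A with WT, −0.39 for KO with WT and 0.43 for T133A with KO, beside medians of 0.00, 0.00 and −0.01 over all genes tested. Without regard to sign, the median size of the change was 0.14, 0.46 and 0.43 among the 8, beside 0.20, 0.43 and 0.37 over all genes. The plot of levels by library shows the 8 genes side by side.

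**Figure D1:**
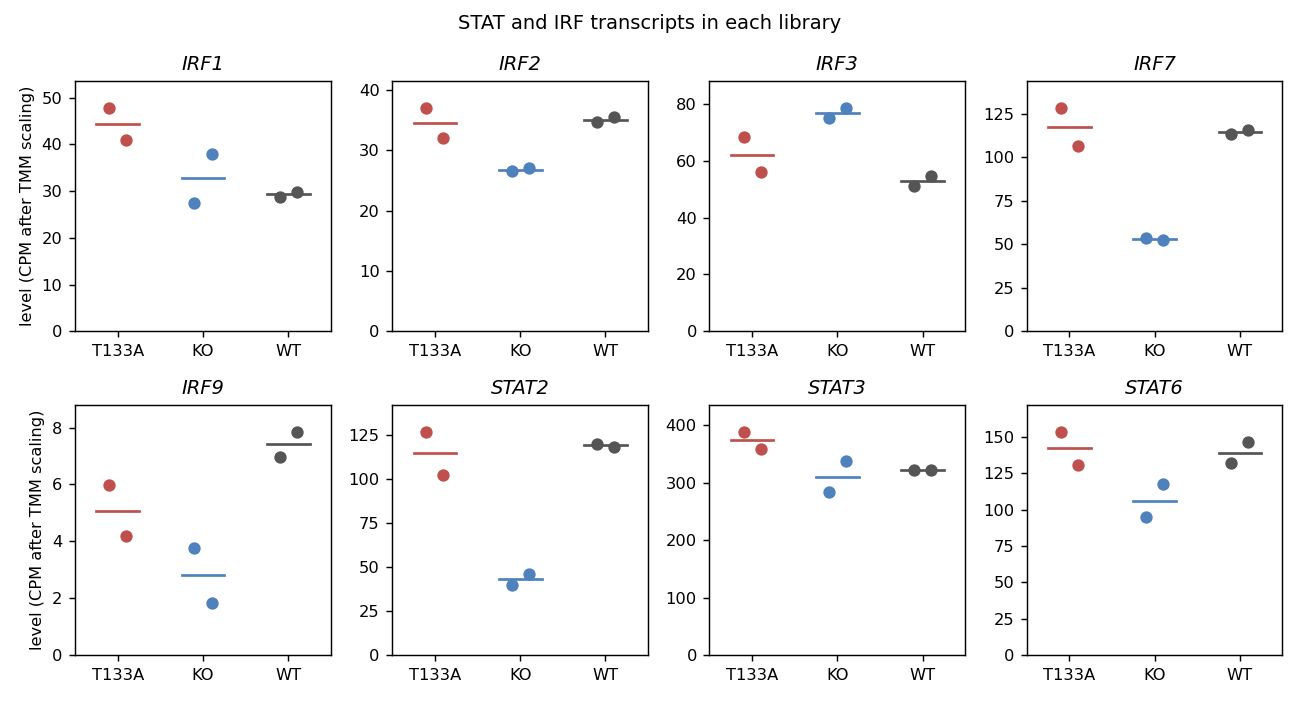
Levels of the 8 STAT and IRF genes (CPM after TMM scaling) in each of the 6 libraries, with the groups T133A, KO and WT from left to right and 1 point per library. STAT2 lies at 40.0 and 46.1 CPM in KO and above 100 CPM in every T133A and WT library, while IRF1 lies higher in both T133A libraries than in both WT libraries.

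STAT2, the STAT that is specific to the ISGF3 complex, had the largest fall of the 8 genes in KO cells on the log2 scale, with that of IRF9 within 1 SE of it. It had 127 and 102 CPM in T133A, 40.0 and 46.1 CPM in KO, and 120.1 and 118 CPM in WT. Both KO libraries were below all 4 others, and the T133A libraries lay on either side of the WT libraries. STAT2 lies on chromosome 12 from 56341597 to 56360155 on the minus strand (GRCh38), and none of its exonic bases is shared with another gene of GENCODE release 29. It fell 2.76-fold in KO relative to WT (log2 fold change −1.47, SE 0.120, adjusted p = 1.04e-09) and was 2.66-fold higher in T133A relative to KO (log2 fold change 1.41, SE 0.120, adjusted p = 2.24e-09). Between T133A and WT the log2 fold change was −0.06 (SE 0.115, adjusted p = 0.830).

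IRF9, the DNA-reading subunit of ISGF3, was the least abundant of the 8, with counts of 104 and 71 in T133A, 62 and 34 in KO, and 119 and 141 in WT. In CPM these were 5.98 and 4.17 in T133A, 3.76 and 1.83 in KO, and 6.96 and 7.86 in WT, so that the groups did not overlap in any comparison. IRF9 was 2.68-fold lower in KO than in WT (log2 fold change −1.42, SE 0.276, adjusted p = 0.000214). T133A exceeded KO (log2 fold change 0.88, SE 0.286, adjusted p = 0.0176). The T133A to WT log2 fold change of −0.54 (SE 0.256) did not pass the threshold (adjusted p = 0.206). The call between T133A and KO was lost under DESeq2 (adjusted p = 0.0650), without T133A replicate 1 (log2 fold change 0.62, adjusted p = 0.125) and without KO replicate 2 (log2 fold change 0.44, adjusted p = 0.272). IRF9 lies on chromosome 14 from 24161053 to 24166565 on the plus strand, and 1838 of its 3794 exonic bases, which include 100% of its longest transcript, also belong to exons of AL136295.5, a gene annotated on the same strand. AL136295.5 had counts of 21 and 29 in T133A, 19 and 8 in KO, and 24 and 29 in WT. How reads lying in both genes were counted is not given in the labels or processing notes, and the level of IRF9 and its share of the locus are uncertain.

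IRF7, the interferon-inducible factor that amplifies the type I interferon response, had 128 and 106 CPM in T133A, 53.8 and 52.5 CPM in KO, and 113 and 116 CPM in WT. Both KO libraries were lower than the other 4 by more than the spread within any group, and the T133A libraries lay on either side of WT. The gene lies on chromosome 11 from 612553 to 615999 on the minus strand and shares no exonic base with another gene. It was 2.15-fold lower in KO than in WT (log2 fold change −1.11, SE 0.112, adjusted p = 3.64e-08) and 2.21-fold higher in T133A relative to KO (log2 fold change 1.14, SE 0.112, adjusted p = 2.59e-08). Between T133A and WT its log2 fold change was 0.04 (SE 0.109, adjusted p = 0.892). IRF7 and STAT2 kept their calls in both comparisons with KO under every alternative tried, 16 for KO with WT and 17 for T133A with KO. Here and below, the alternatives for T133A with KO include a crossed pairing of the T133A and KO replicate numbers, chosen after seeing the data.

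IRF3, the factor that is present before infection and is activated by TBK1, was the single one of the 8 called higher in KO cells than in WT cells with all libraries in the fit. It had 68.2 and 56.0 CPM in T133A, 74.9 and 78.6 CPM in KO, and 51.2 and 54.7 CPM in WT. The groups did not overlap, with KO highest and WT lowest. The log2 fold change was 0.54 in KO relative to WT (SE 0.116, adjusted p = 0.000640), −0.31 in T133A relative to KO (SE 0.115, adjusted p = 0.0392) and 0.23 in T133A relative to WT (SE 0.117, adjusted p = 0.243). With a correction for GC content and length the KO to WT value was 0.34 (adjusted p = 0.00154), and that of T133A to KO was −0.14 and not called (adjusted p = 0.189). The T133A to KO call was made in 7 of 17 alternatives, the crossed pairing chosen after seeing the data among the 7. Without T133A replicate 2 the T133A to KO value was −0.17 and not called, while that of T133A to WT was 0.37 and called. IRF3 lies on chromosome 19 from 49659569 to 49665875 on the minus strand, and 19.3% of its exonic bases overlap BCL2L12 on the other strand. BCL2L12 had counts of 761 and 605 in T133A, 898 and 878 in KO, and 481 and 565 in WT, the same order of groups as IRF3. Its part in the IRF3 counts was not tested.

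IRF1, an activator that interferon gamma and inflammatory cytokines induce, had 47.8 and 40.9 CPM in T133A, 27.4 and 38.1 CPM in KO, and 28.8 and 29.8 CPM in WT. Both T133A libraries were above all others, the WT libraries were close together, and the KO libraries spanned them. It rose 1.51-fold in T133A relative to WT (log2 fold change 0.60, SE 0.144, adjusted p = 0.00844). T133A also exceeded KO (log2 fold change 0.44, SE 0.143, adjusted p = 0.0178). Between KO and WT the log2 fold change was 0.16 (SE 0.145, adjusted p = 0.378). The KO libraries decided much of this: without KO replicate 1 the KO to WT value was 0.40 and called (adjusted p = 0.0333), and that of T133A to KO was 0.19 and not called (adjusted p = 0.328). The call between T133A and WT was lost without WT replicate 1 (log2 fold change 0.57, adjusted p = 0.0627), and that between T133A and KO without T133A replicate 1 (0.34, adjusted p = 0.0751). IRF1 lies on chromosome 5 from 132481609 to 132490798 on the minus strand, and 22% of its exonic bases overlap C5orf56 on the other strand. C5orf56 had counts of 82 and 71 in T133A, 25 and 47 in KO, and 106 and 90 in WT, with the WT libraries highest, and its part in the IRF1 counts was not tested.

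The promoters of IRF1 and STAT2 are shown because IRF1 was the gene called between T133A and WT, and STAT2 had the largest fall in KO. The RefSeq promoter table (GRCh38.p14) held 5 of the 8 genes, IRF1, IRF9, STAT2, STAT3 and STAT6. The bases printed lie upstream of the gene's span in the files, at chr5:132490799-132491023 for IRF1 and chr12:56360156-56360357 for STAT2, both on the minus strand, and capitals mark motif matches.
IRF1: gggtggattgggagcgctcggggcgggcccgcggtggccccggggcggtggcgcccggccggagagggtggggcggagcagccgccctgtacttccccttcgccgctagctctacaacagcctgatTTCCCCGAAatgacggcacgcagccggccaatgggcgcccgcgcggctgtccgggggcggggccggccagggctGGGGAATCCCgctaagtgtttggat
STAT2: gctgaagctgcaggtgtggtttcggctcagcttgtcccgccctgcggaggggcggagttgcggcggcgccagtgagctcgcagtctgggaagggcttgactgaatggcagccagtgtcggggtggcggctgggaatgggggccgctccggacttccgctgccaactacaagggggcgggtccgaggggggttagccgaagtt
Both strands of the 250 bases upstream of the start were searched for the STAT dimer site GAS (TTCNNNGAA), the ISRE core (GAAANNGAA), the NF-kB consensus and a posterior HOX core (TTTANGA). IRF1 held a GAS match, TTCCCCGAA, from 124 to 116 bases upstream, and an NF-kB match, GGGGAATCCC, from 50 to 41 bases upstream. IRF9 held a GAS match, TTCTGGGAA, from 63 to 55 bases upstream, and the windows of STAT2, STAT3 and STAT6 held none of the 4 motifs. The start is that of RefSeq, and the gene spans in the files begin further upstream, so the IRF9 match and the whole STAT6 window lie inside the spans of the genes counted. Of 35116 promoters of the same length, 6.57% held the GAS letters, 6.88% the ISRE core, 9.96% the NF-kB consensus and 9.25% the HOX core. These matches describe letters in a window and do not show that a factor binds there.

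IRF2, the repressor that shares sites with IRF1, had 37.1 and 32.0 CPM in T133A, 26.5 and 27.1 CPM in KO, and 34.7 and 35.6 CPM in WT. Both KO libraries were below the other 4, and the T133A libraries lay on either side of WT. The log2 fold change was −0.39 in KO relative to WT (SE 0.127, adjusted p = 0.0155), 0.37 in T133A relative to KO (SE 0.128, adjusted p = 0.0254) and −0.02 in T133A relative to WT (SE 0.126, adjusted p = 0.944). The KO to WT call was lost without WT replicate 1 (adjusted p = 0.0923), without WT replicate 2 (adjusted p = 0.123) and without KO replicate 1 (adjusted p = 0.0665). The T133A to KO call was made in 9 of 17 alternatives, the crossed pairing chosen after seeing the data among the 9. This call was lost without each library other than T133A replicate 2. IRF2 lies on chromosome 4 from 184387713 to 184474580 on the minus strand, with no shared exonic base.

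STAT3, which carries interleukin-6 and oncostatin M signals, had the highest CPM of the 8, with 389 and 359 CPM in T133A, 284 and 338 CPM in KO, and 321 and 323 CPM in WT. The T133A libraries were above all others, and the KO libraries lay on either side of WT. The log2 fold change was 0.22 in T133A relative to WT (SE 0.105, adjusted p = 0.222), −0.05 in KO relative to WT (SE 0.105, adjusted p = 0.716) and 0.27 in T133A relative to KO (SE 0.105, adjusted p = 0.0468). Among the 17 alternatives, which included the crossed pairing chosen after seeing the data, 8 made this last call. The call was the weakest of the 8. It was lost without WT replicate 1 (adjusted p = 0.116), WT replicate 2 (adjusted p = 0.118), T133A replicate 1 (adjusted p = 0.0936) or KO replicate 1 (0.12 on the log2 scale, adjusted p = 0.391). STAT3 lies on chromosome 17 from 42313324 to 42388568 on the minus strand, with no shared exonic base.

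STAT6, the STAT of the interleukin 4 and 13 receptors, had 154 and 131 CPM in T133A, 94.8 and 118 CPM in KO, and 132 and 146 CPM in WT. Both KO libraries were below the other 4, and the T133A and WT ranges overlapped. The log2 fold change was −0.39 in KO relative to WT (SE 0.117, adjusted p = 0.00930), 0.42 in T133A relative to KO (SE 0.117, adjusted p = 0.00628) and 0.03 in T133A relative to WT (SE 0.117, adjusted p = 0.909). Both calls rested on KO replicate 1, the lower KO library. Without it the KO to WT value was −0.22 (adjusted p = 0.150) and that of T133A to KO was 0.24 (adjusted p = 0.127), and the KO to WT call was also lost without WT replicate 2 (−0.31, adjusted p = 0.129). STAT6 lies on chromosome 12 from 57095408 to 57132139 on the minus strand, and 1.75% of its exonic bases overlap LRP1 or NAB2 on the other strand.

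**Figure D2:**
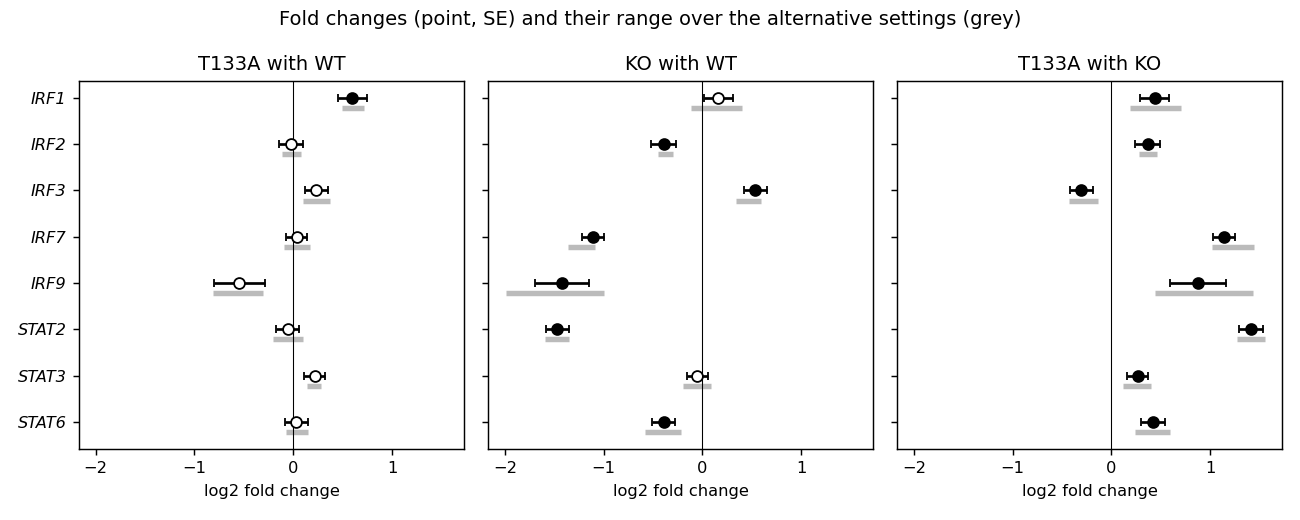
Log2 fold changes of the 8 genes in the 3 comparisons (points, with the SE as a black bar), where filled points are called at an adjusted p under 0.05 and grey bars give the range over the alternative settings. STAT2 and IRF7 lie below −1 for KO with WT and above 1 for T133A with KO, while their values for T133A with WT are −0.06 and 0.04.

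Levels were compared between genes per kb of the gene length in the files, which counts all exonic bases of a gene. This length exceeds the longest transcript by unlike amounts, with 8812 against 5047 bases for STAT3 and 2628 against 2051 bases for IRF7. The order of the genes and the overlap of neighbours hold for this length only. With the longest transcript, which of STAT3 and IRF7 leads can change. In T133A the order was IRF7 at 44.6 ± 5.97 and STAT3 at 42.5 ± 2.42 CPM per kb (SD, n = 2), whose libraries overlapped, then STAT6 at 19.5 ± 2.20, STAT2 at 18.8 ± 2.84 and IRF3 at 16.4 ± 2.28, each overlapping its neighbour. IRF2 at 11.1 ± 1.14, IRF1 at 5.69 ± 0.627 and IRF9 at 1.34 ± 0.336 CPM per kb followed without overlap. In KO, STAT3 came first at 35.3 ± 4.36 CPM per kb, IRF3 and IRF7 overlapped at 20.2 ± 0.694 and 20.2 ± 0.352, and STAT6 followed at 14.5 ± 2.21. IRF2 at 8.60 ± 0.124 stood above STAT2 at 7.05 ± 0.708 CPM per kb in KO, and IRF1 at 4.19 ± 0.968 and IRF9 at 0.737 ± 0.360 came last. In WT, IRF7 at 43.5 ± 0.687 stood above STAT3 at 36.6 ± 0.112, STAT2 at 19.5 ± 0.226 and STAT6 at 19.1 ± 1.37 overlapped, and IRF3 at 13.95 ± 0.642, IRF2 at 11.3 ± 0.208, IRF1 at 3.76 ± 0.0976 and IRF9 at 1.95 ± 0.169 CPM per kb followed.

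**Figure D3:**
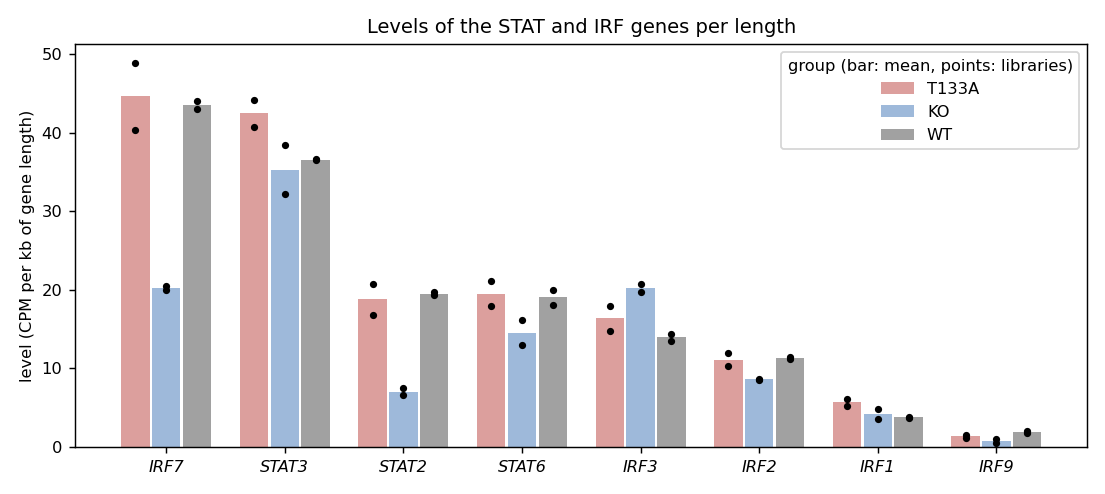
Levels of the 8 genes per length (CPM per kb of gene length) in T133A, KO and WT, as group means (bars) with the 2 libraries of each group (points). By this length, on which the order between genes depends, IRF7 has the highest mean in WT at 43.5 and in T133A at 44.6 CPM per kb. In KO it lies beside IRF3 at 20.2 CPM per kb, under STAT3.

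Ratios within a library describe how pairs of these factors stood to each other, with no test. The ratio of IRF7 to IRF3 per length was 2.71 and 2.73 in T133A, 1.04 and 0.963 in KO, and 3.19 and 3.06 in WT. The activator IRF1 over the repressor IRF2 gave 0.515 and 0.510 in T133A, 0.412 and 0.562 in KO, and 0.331 and 0.335 in WT. STAT2 over STAT3 gave 0.470 and 0.411 in T133A, 0.203 and 0.197 in KO, and 0.539 and 0.528 in WT. The KO libraries were lowest for IRF7 over IRF3 and for STAT2 over STAT3, and the WT libraries were lowest for IRF1 over IRF2.

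The genes around the 8 factors were counted in lists of ligands, receptors, kinases, inhibitors and targets. Their counts stand beside the shares of all genes tested, 5.58% higher and 3.97% lower for T133A with WT, 23.6% and 23.0% for KO with WT, and 20.3% and 19.6% for T133A with KO, and in lists this short 1 library often moved them. Among the 11 interferon genes listed, only IFNE, an epithelial type I interferon, passed the filter on low counts, with 2.01 ± 0.402 CPM in T133A, 0.951 ± 0.888 CPM in KO and 1.95 ± 0.307 CPM in WT (SD, n = 2), and edgeR with all libraries did not call it (adjusted p = 0.969 for T133A with WT, 0.0717 for KO with WT and 0.0677 for T133A with KO). It was called lower in KO than in WT in 6 of 15 alternatives. In 10 of 16, the crossed pairing chosen after seeing the data among the 10, it was called higher in T133A than in KO. Both sets held limma-voom (adjusted p = 0.0274 and 0.0268 for IFNE). Without KO replicate 1 its log2 fold change was −2.54 for KO with WT (adjusted p = 0.00204) and 2.58 for T133A with KO (adjusted p = 0.00216), and other libraries left out that gave a call were WT replicate 2 and T133A replicate 1 for both comparisons and WT replicate 1 for T133A with KO. IFNB1 had counts of 2 and 4 in T133A, 1 and 1 in KO, and 0 and 0 in WT, and IFNG had 0 in every library, which allows up to 0.160 to 0.184 CPM per library. Of the 6 interferon receptor chains, 2 were higher and none lower in T133A than in WT, none higher and 2 lower in KO than in WT, and 5 higher and none lower in T133A than in KO. IFNGR1, a chain of the interferon gamma receptor, had 170.3 ± 15.7 CPM in T133A, 36.5 ± 3.87 CPM in KO and 52.3 ± 1.01 CPM in WT, so it was 3.26-fold higher in T133A than in WT (log2 fold change 1.70, SE 0.113, adjusted p = 1.87e-10) and lower in KO than in WT (log2 fold change −0.51, SE 0.116, adjusted p = 0.000937). IFNGR2, its partner chain, was 1.32-fold higher in T133A than in WT (log2 fold change 0.40, SE 0.125, adjusted p = 0.0449), a call made in 9 of 16 alternatives and lost without WT replicate 1 (adjusted p = 0.319), WT replicate 2 (0.278) or T133A replicate 1 (0.309), under DESeq2 (0.0832) and with the replicate number as a block (0.0752). IFNLR1, the chain that binds interferon lambda, fell in KO relative to WT (log2 fold change −0.86, SE 0.275, adjusted p = 0.0133), a call lost without WT replicate 2 (adjusted p = 0.118) or KO replicate 2 (0.0717) and under DESeq2 (0.0872). The list's counts thus became 1 higher for T133A with WT and 1 lower for KO with WT without those libraries, and 3 higher for T133A with KO without KO replicate 2.

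Of the 4 Janus kinases, 1 was higher in T133A than in WT, 1 was higher and 2 lower in KO than in WT, and 1 was higher in T133A than in KO. The 2 became 1 without WT replicate 1 or KO replicate 2, and without T133A replicate 2 there was 1 lower in T133A than in WT. JAK1, which serves interferon and gp130 receptors, had 241 ± 11.8 CPM in T133A, 264 ± 5.26 CPM in KO and 170.0 ± 3.51 CPM in WT, and was higher than WT in both other groups (log2 fold change 0.51 in T133A, adjusted p = 0.00135, and 0.63 in KO, adjusted p = 1.70e-05). Without WT replicate 1 the T133A value was 0.48 and not called (adjusted p = 0.0673). JAK3 fell in KO relative to WT by 1.38 on the log2 scale (SE 0.254, adjusted p = 0.000125). Upstream of STAT3, 3 of the 4 tested gp130 cytokines were higher in T133A than in WT, 2 were higher in KO than in WT, and 1 was higher in T133A than in KO, where without KO replicate 2 there was also 1 lower, IL11 (log2 fold change −0.67, adjusted p = 0.0340). IL6 had 20.9 ± 0.984 CPM in T133A, 1.80 ± 0.492 CPM in KO and 1.43 ± 0.371 CPM in WT, a 14.5-fold rise in T133A relative to WT (log2 fold change 3.86, SE 0.233, adjusted p = 3.64e-11). IL11 was higher than WT in both groups (log2 fold change 2.30 in T133A, adjusted p = 6.96e-06, and 2.64 in KO, adjusted p = 9.25e-08), and so was LIF (0.58 in T133A, adjusted p = 0.000771, and 0.59 in KO, adjusted p = 0.000106). Of the 5 tested gp130 receptor chains, 1 was higher in T133A than in WT, 2 were lower in KO than in WT, and 1 was higher in T133A than in KO. Counts of 0 in this list became 1 or 2 without KO replicate 2 or either T133A library. OSMR, the oncostatin M receptor, had 508 ± 15.96 CPM in T133A, 177 ± 23.2 CPM in KO and 279 ± 13.4 CPM in WT, and it was the chain called in each of the 3 comparisons. IL11RA, the interleukin 11 receptor chain, was the other one lower in KO (log2 fold change −1.06, adjusted p = 0.000392).

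Of the interleukin 4 and 13 receptor chains upstream of STAT6, 2 were tested. IL4R had 56.0 ± 10.6 CPM in T133A, 45.9 ± 0.874 CPM in KO and 27.3 ± 0.666 CPM in WT, and rose relative to WT in T133A (log2 fold change 1.04, adjusted p = 7.75e-06) and in KO (0.75, adjusted p = 7.67e-05). IL13RA1 fell in KO relative to WT (log2 fold change −0.41, adjusted p = 0.00204), a call lost without WT replicate 1 (−0.37, adjusted p = 0.0684). It was the chain called higher in T133A than in KO, and without T133A replicate 2 IL4R was called there too (log2 fold change 0.46, adjusted p = 0.00282). Among the 17 inhibitors of STAT signalling, 2 were higher and 3 lower in T133A than in WT, 5 higher and 6 lower in KO than in WT, and 3 higher and 3 lower in T133A than in KO. Without WT replicate 1 these were 1 higher and 0 lower for T133A with WT, and 2 higher and 3 lower for KO with WT. Without WT replicate 2 they were 1 and 1 for T133A with WT, and 3 were higher for KO with WT. Without T133A replicate 1 they were 1 and 0 for T133A with WT, without T133A replicate 2 none was lower for T133A with KO, and without KO replicate 2 none was lower there and 3 were higher for KO with WT. SOCS3, which blocks gp130 signals, had 30.7 ± 2.68 CPM in T133A, 26.1 ± 1.49 CPM in KO and 12.4 ± 0.211 CPM in WT, and was higher than WT in T133A (log2 fold change 1.31, adjusted p = 7.85e-07) and in KO (1.07, adjusted p = 2.08e-06). USP18, an interferon-induced brake on the type I receptor that binds STAT2, had 51.9 ± 5.34 CPM in T133A, 26.6 ± 3.51 CPM in KO and 55.03 ± 1.52 CPM in WT, and fell in KO relative to WT (log2 fold change −1.05, adjusted p = 6.02e-07). PIAS1, a SUMO ligase that binds STATs, was lower than WT in T133A (log2 fold change −0.45, adjusted p = 0.0242) and in KO (−0.43, adjusted p = 0.00755). The T133A call was lost without WT replicate 1 (adjusted p = 0.349) or T133A replicate 1 (0.164), and the KO call without WT replicate 1 (0.153) or KO replicate 1 (0.118) and with the GC and length correction (−0.12, 0.361). SOCS5 was higher in T133A than in KO (0.52, adjusted p = 0.00237), a call lost without KO replicate 2 (0.39, adjusted p = 0.0553).

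Of the 15 tested nucleic acid sensors, adaptors and kinases upstream of IRF3 and IRF7, 3 were higher and none lower in T133A than in WT, 3 higher and 6 lower in KO than in WT, and 7 higher and 1 lower in T133A than in KO. The single lower gene was TRAF3, and it was not called there without WT replicate 1, WT replicate 2, T133A replicate 2 or KO replicate 2 (adjusted p from 0.0639 to 0.105). Between T133A and WT, 2 were lower without T133A replicate 2, and 1 without KO replicate 1 or 2. The RNA sensor DDX58 (RIG-I) had 181 ± 16.2 CPM in T133A, 53.8 ± 4.49 CPM in KO and 191 ± 3.77 CPM in WT, and the RNA sensor IFIH1 (MDA5) had 61.8 ± 7.23 CPM in T133A, 21.8 ± 1.85 CPM in KO and 74.0 ± 2.75 CPM in WT. Both fell in KO relative to WT (log2 fold change −1.83, adjusted p = 5.99e-12, for DDX58 and −1.77, adjusted p = 9.66e-11, for IFIH1) and both are themselves interferon-induced genes. IKBKE, a kinase of IRF3 and IRF7, had 28.5 ± 4.19 CPM in T133A, 16.9 ± 0.222 CPM in KO and 11.2 ± 0.0728 CPM in WT, and was higher than WT in T133A (log2 fold change 1.35, adjusted p = 1.08e-06) and in KO (0.59, adjusted p = 0.00293). The adaptor TRAF3 was also higher than WT in T133A (log2 fold change 0.64, adjusted p = 0.000230) and in KO (0.94, adjusted p = 1.93e-07). Of the 3 proteins that bind IRF2, none was called between T133A and WT, by edgeR or under any of the 16 alternatives. IRF2BP1 was higher in KO than in WT (log2 fold change 0.55, adjusted p = 0.000318) and IRF2BP2 was lower (−0.59, adjusted p = 5.88e-05), and in T133A relative to KO they were called in the opposite directions, with 2 higher in T133A without T133A replicate 2.

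The known targets of ISGF3, a list chosen with earlier results of these data known, were lower in KO cells than in both other groups. Their count is therefore a description and not separate evidence. Of 36 tested, 36 were lower in KO than in WT and 36 were higher in T133A than in KO, with median log2 fold changes of −1.97 and 1.69 beside medians of 0.00 and −0.01 over all genes. Over the alternatives, 34 to 36 were called in each of these comparisons. The 34 came from the minimum mean of 5 CPM, under which 34 were tested and all 34 were called. IFITM1, a membrane protein that restricts virus entry, had 240 ± 64.0 CPM in T133A, 5.69 ± 0.323 CPM in KO and 301 ± 15.7 CPM in WT, and was 52.8-fold lower in KO than in WT (log2 fold change −5.72, SE 0.173, adjusted p = 2.71e-17). IFI27 was 13.1-fold lower in KO than in WT (log2 fold change −3.72, SE 0.118, adjusted p = 7.01e-17), and BST2, which tethers budding virus, was 25.3-fold higher in T133A relative to KO (log2 fold change 4.66, SE 0.145, adjusted p = 3.35e-17). Between T133A and WT none of the 36 was higher and 6 were lower, IFI44, IFI44L, DDX60, XAF1, SAMD9L and PARP14, with a list median of −0.17. IFI44L had 97.0 ± 9.52 CPM in T133A, against 147 ± 4.12 CPM in WT, a log2 difference of −0.60 (SE 0.111, adjusted p = 0.000819), and DDX60 had 79.0 ± 15.8 CPM in T133A, against 122 ± 6.23 CPM in WT (−0.62, SE 0.133, adjusted p = 0.00307). Without WT replicate 1 the count of lower genes between T133A and WT was 3, and with library size as the only scaling it was 11, while without T133A replicate 2 there was 1 higher.

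Of 21 tested IRF1 targets, 7 were higher and none lower in T133A than in WT, with a median log2 fold change of 0.45. They were GBP1, GBP2, GBP4, GBP5, CXCL10, TAP1 and IDO1. GBP1, an interferon-induced GTPase, had 33.0 ± 0.194 CPM in T133A, 15.5 ± 1.40 CPM in KO and 18.3 ± 0.0381 CPM in WT (a log2 difference of 0.85 for T133A over WT, SE 0.135, adjusted p = 0.000142). GBP5 had 2.21 ± 0.611 CPM in T133A, 0.256 ± 0.0186 CPM in KO and 0.141 ± 0.116 CPM in WT. Its WT mean lies below the 0.171 to 0.180 CPM that a count of 0 allows in the WT libraries. In KO relative to WT 1 was higher and 15 were lower (median −0.62), and in T133A relative to KO 18 were higher and none lower (median 1.39). B2M, the light chain of class I molecules, had 1559 ± 1.98 CPM in T133A, 418 ± 30.9 CPM in KO and 1322 ± 50.7 CPM in WT, and was 3.16-fold lower in KO than in WT (log2 fold change −1.66, SE 0.107, adjusted p = 1.97e-11). GBP3 was 3.21-fold lower in KO than in WT (log2 fold change −1.68, SE 0.144, adjusted p = 2.47e-09). IDO1, which degrades tryptophan, had 328 counts over the T133A libraries, 2 over the KO libraries and 130 over the WT libraries. The T133A to KO ratio of these counts per library total, without TMM scaling, was 162, with an exact 95% interval for counting error of 44.6 to 1347. These list counts moved with single libraries and settings. The 7 of 21 became 4 of 14 tested with a minimum mean of 5 CPM, and 13 of 21 with a GC and length correction. Without WT replicate 1, fewer than 15 were lower in KO than in WT. The 1 gene higher in KO than in WT was not called without WT replicate 1 or KO replicate 2, and 1 was lower in T133A than in WT without T133A replicate 2.

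Of 20 tested STAT3 targets, 8 were higher and 1 lower in T133A than in WT, 5 higher and 9 lower in KO than in WT, and 11 higher and 2 lower in T133A than in KO, with median log2 fold changes of 0.18, −0.29 and 0.41. The 8 became 5 without WT replicate 1. The 1 became 0 without WT replicate 1, WT replicate 2 or T133A replicate 1 and 2 without any other library, and the 2 became 1 without WT replicate 1, WT replicate 2 or KO replicate 1. The fibrinogen chain gene FGB, which interleukin 6 induces in liver cells, had 161 ± 6.61 CPM in T133A, 0.613 ± 0.351 CPM in KO and 141 ± 2.85 CPM in WT, and FGG had 68.0 ± 2.004 CPM in T133A, 1.60 ± 0.550 CPM in KO and 63.2 ± 3.56 CPM in WT. Both fell in KO relative to WT (log2 fold change −7.80, adjusted p = 7.99e-19, for FGB and −5.28, adjusted p = 2.43e-16, for FGG). SOCS3, in this list as well, was higher in both groups than in WT, as given above. LBP, an acute-phase protein, had 4.07 ± 0.229 CPM in T133A, 0.115 ± 0.00973 CPM in KO and 0.141 ± 0.116 CPM in WT. Its KO and WT means lie below the 0.160 to 0.184 CPM that a count of 0 allows in those libraries. Of the 6 tested STAT6 targets of epithelium, none was higher and 3 were lower in T133A than in WT, 1 was higher and 3 lower in KO than in WT, and 3 were higher and 2 lower in T133A than in KO. Without KO replicate 2 none was higher in KO than in WT and none lower in T133A than in KO, and without T133A replicate 2 the 2 became 1. SPDEF, a goblet cell factor, had 8.39 ± 1.39 CPM in T133A, 3.02 ± 0.671 CPM in KO and 35.0 ± 1.78 CPM in WT, and FCGBP, a mucus protein, had 190.0 ± 28.8 CPM in T133A, 11.1 ± 0.632 CPM in KO and 363 ± 11.3 CPM in WT. Both were lower than WT in T133A (log2 fold change −2.06, adjusted p = 4.86e-09, for SPDEF and −0.93, adjusted p = 2.27e-06, for FCGBP) and in KO (−3.52, adjusted p = 6.31e-13, for SPDEF and −5.03, adjusted p = 3.29e-18, for FCGBP).

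**Figure D4:**
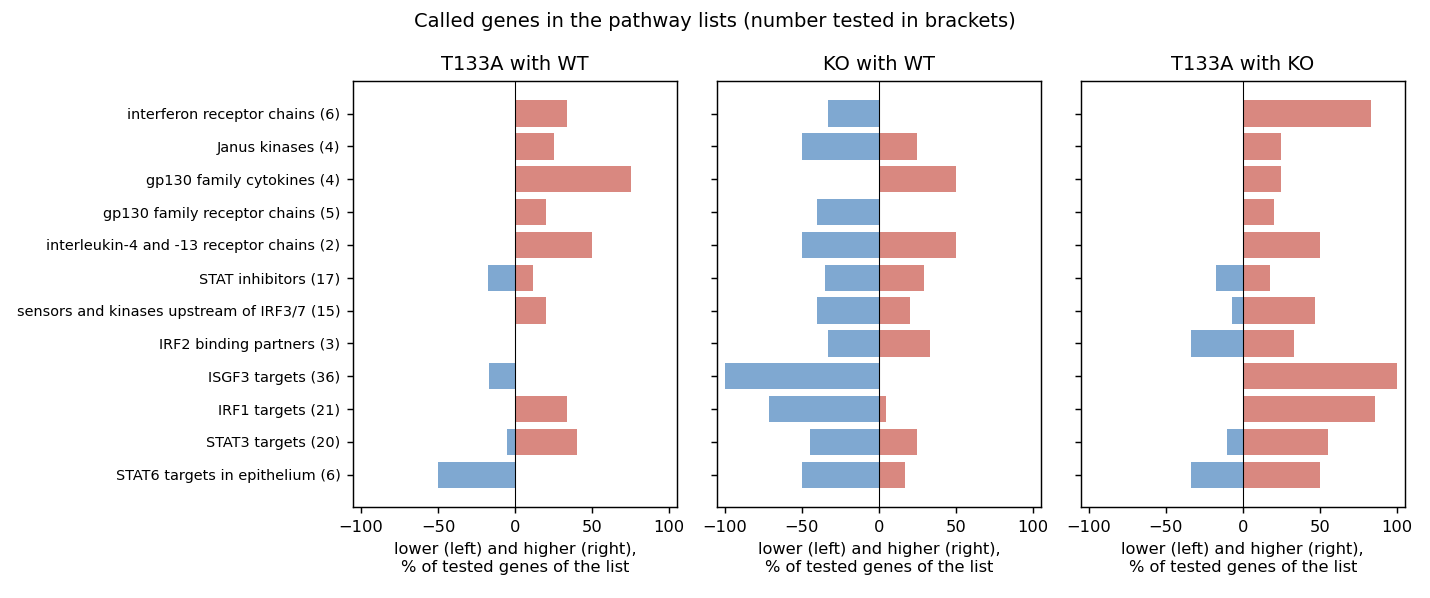
Share of the tested genes of each list (percent, with the number tested in brackets) called higher (red, right of 0) or lower (blue, left of 0) in the panels T133A with WT (left), KO with WT (middle) and T133A with KO (right). The ISGF3 targets reach all 36 lower for KO with WT and all 36 higher for T133A with KO, while 6 of 36 are lower for T133A with WT.

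Each of the 8 factors was set beside the protein-coding genes whose log2 levels were most like its own over the 6 libraries, as a description. For STAT2 the closest were PLA2G16 (r = 0.999), PLEKHA4 (r = 0.998) and MX1 (r = 0.998), the last an ISGF3 target with 400.3 CPM in T133A, 109 CPM in KO and 451 CPM in WT. For IRF7 they included SPINT2 (r = 0.999) and SLC45A1 (r = 0.998), which also had their lowest group mean in KO. IRF9 was closest to CACNG8 (r = 0.988), C17orf100 (r = 0.978) and ADSSL1 (r = 0.975), each lowest in KO and highest in WT. IRF3 was closest to PPP2R5D, OAZ2 and PTDSS2 (r = 0.998 each), all highest in KO. IRF1 was closest to AREL1 (r = 0.992), RAD51B (r = 0.981) and CTSB (r = 0.979), the last a lysosomal protease with 829 CPM in T133A, 524 CPM in KO and 459.98 CPM in WT. IRF2 was closest to CNNM2 (r = 0.997) and C11orf80 (r = 0.997). STAT3 was closest to IGF2R (r = 0.996), ZER1 (r = 0.993) and TMBIM6 (r = 0.992), and STAT6 to KSR1 (r = 0.994), CCDC24 (r = 0.993) and the keratin gene KRT18 (r = 0.993). The points share 3 groups of 2 libraries, and between 2191 and 10422 genes were searched for each factor.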

How the data were processed

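Each of the 6 deposited files listed genes with counts and FPKM values. Per the submitters' processing notes, the authors used HISAT2 2.0.5, featureCounts 1.5.0 and GRCh38. The sources used here do not give the strand setting, the handling of reads in several genes or the annotation release. The deposited counts were whole numbers with no normalization. The FPKM values deposited by the authors served only to check library sizes. For 27 gene names turned into dates, the name was restored from the identifier.

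Genes were tested with edgeR 4.0.16 (R 4.3.3; filterByExpr, TMM, robust quasi-likelihood fit) in 1 fit of the 6 libraries, with a term for group alone, two-sided, with Benjamini-Hochberg adjustment over 16340 genes within a comparison. The biological coefficient of variation was 8.96%. SE is the log2 fold change over the square root of F. Fold changes are the group named first over the other. A count of 0 allows up to 3 counts, and this floor and counting intervals cover counting error only. Alternatives were library size only, RLE factors, limma-voom (limma 3.58.1), DESeq2 1.42.0, no filter, a mean of at least 5 CPM, only the groups compared, the replicate number as a block, a loess correction for GC content and length (span 0.5), and each library left out, where a lone library is assumed to vary like the others. For T133A with KO only, a crossed pairing of the T133A and KO replicate numbers, chosen after seeing the data, was added to the alternatives. Exon overlaps used GENCODE release 29, which has the same start, end and length for all 8 genes.

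The 8 genes and all lists were chosen with earlier results of these data known. Named are the 8, HOXB9, up to 2 called genes per list and comparison with the smallest adjusted p (the most abundant where none was called), and, for each of the 8, the 3 protein-coding genes with the highest Pearson r of log2(CPM + 1), a mean of at least 5 CPM and an SD of at least 0.5 times that of the factor. A few genes that this rule names are not reported here. The interferon genes IFNB1 and IFNG, the ISGF3 and IRF1 targets listed as called between T133A and WT, and genes overlapping the 8 were named after their values were seen. Files were read and figures drawn with Python 3.11.15, pandas 2.3.3, numpy 2.4.6, scipy 1.17.1 and matplotlib 3.10.9.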

Additional observations from a re-analysis of the deposited data

How the results depend on the processing

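Over the 8 genes, 3 comparisons and all alternatives, including the crossed pairing described below, 340 values kept their direction and side of the threshold. Another 39 lost and 2 gained a call, and 11, none of them called, changed sign. With 1 library left out, the values for T133A with WT that crossed 0 ran from −0.12 to 0.084 for IRF2, −0.092 to 0.17 for IRF7, −0.20 to 0.097 for STAT2 and −0.072 to 0.15 for STAT6, with the lowest without T133A replicate 1 and the highest without T133A replicate 2. For KO with WT they ran from −0.11 (without KO replicate 2) to 0.40 (without KO replicate 1) for IRF1 and from −0.20 to 0.092 for STAT3, at the same libraries. The other sign changes were for T133A with WT, IRF7 (−0.039) and STAT6 (−0.041) with library size only, and STAT6 with the GC and length correction (−0.018) and with that correction plus the replicate block (−0.015). Over genes, the difference of replicate 1 from replicate 2 correlated with GC content at 0.50 in T133A, −0.29 in KO and −0.18 in WT (Spearman). Log2 fold changes correlated with it at 0.17 for T133A with WT, 0.26 for KO with WT and −0.19 for T133A with KO. The cause of the sign changes was not tested. With 1 library left out, 0 to 2 of the 8 were called for T133A with WT and 4 to 7 for T133A with KO, and all genes called for T133A with WT ran from 763 (without WT replicate 1) to 2579 (without T133A replicate 2), against 1560 with all libraries. The GC and length correction called 2525 genes there. DESeq2 called 4 of the 8 for T133A with KO, against 8 in edgeR. Deviations of same-numbered libraries correlated at −0.052 for T133A and WT, 0.023 for KO and WT, and −0.118 for T133A and KO. These values over all genes show no pairing by replicate number, but they cannot exclude one. With the replicate number as a block, 5 of the 8 were called for T133A with KO. A crossed pairing of T133A and KO numbers, chosen after seeing the data, called 8 of the 8 and 7609 genes. Fold changes within 2 libraries a group and IRF9 counts as low as 34 limit the smaller differences.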
